A study of Mus musculus with 8 samples.

Results

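The genes that make, carry and break down dopamine, noradrenaline and serotonin were followed on 8 mouse brain arrays. The 10 genes were chosen by function, with earlier results of these data known. They were matched by the gene symbol of the array annotation: Th, Ddc, Slc18a2, Slc6a3, Dbh, Slc6a2, Tph2, Slc6a4, Maoa and Maob. Each had 1 probe, 10 of the 23473 probes and of the 19321 gene symbols on the array. A probe was called above background where its spot exceeded the mean of the blank spots plus 2 SD, and was tested where it did so on at least 2 arrays. Of the 21583 probes tested, 9 were monoamine genes. Slc6a4, the serotonin transporter, did not exceed the limit on any array and was not tested.

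Monoamine transmitters are made by small groups of neurons whose cell bodies lie mainly in the midbrain and brainstem: dopamine neurons in the substantia nigra and ventral tegmental area, noradrenaline neurons in the locus coeruleus and serotonin neurons in the raphe nuclei. Their axons reach the cortex and striatum, but the mRNA of their enzymes and transporters is found mostly in the cell bodies. The outer mitochondrial enzymes Maoa and Maob, which degrade monoamines, are also made by other neurons and by glia.

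All mice were male C57Bl/6J, 9 weeks old by the labels, fasted for 6 h before sampling and perfused before the brain was removed. The control group was 2 mice that drank water and were sampled at day 0, 3 mice had trehalose, a disaccharide of glucose, for 1 day, and 3 mice had it for 10 days. Each mouse gave 1 array, and no water mice were sampled at 1 or 10 days, so trehalose and sampling time cannot be told apart. Mice were caged by 3. Which of them shared a cage, and the trehalose dose, are not given in the sources used here.

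By the sample labels the tissue was cortical, whereas the design text gives a frozen left hemisphere. On the arrays all 15 tested cortex neuron marker probes exceeded the limit on every array, but so did 17 of 17 striatum, 8 of 8 choroid plexus, 19 of 20 thalamus and 17 of 18 hypothalamus probes. Per array, 86.3% to 92.0% of all probes exceeded the limit, with a median spot at 2.45 to 2.87 times the blank mean. With so few arrays precision was limited, and a typical log2 change had a 95% interval of 0.130 to either side against control, or 0.117 between 1 and 10 days.

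RefSeq gave promoter sequences of the GRCm38.p6 assembly for 8 of the 10 genes, and the 4 shown are those of the dopamine genes, because Th, Slc18a2 and Slc6a3 varied together over the arrays and Ddc did so less. Each is the 250 bases before a start annotated in that table, 5′ to 3′ on the gene's strand, with matches to the searched motifs in capitals. They lie at chr7:142899996-142900245 on the minus strand for Th, chr19:59260628-59260877 on the plus strand for Slc18a2, chr13:73536497-73536746 on the plus strand for Slc6a3 and chr11:11898145-11898394 on the minus strand for Ddc, which has a second annotated promoter that is not shown. For Th, Slc18a2 and Ddc that start is the end of the gene's span, whereas for Slc6a3 it lies 619 bases inside the span, so the Slc6a3 window is itself within the annotated gene.
Th: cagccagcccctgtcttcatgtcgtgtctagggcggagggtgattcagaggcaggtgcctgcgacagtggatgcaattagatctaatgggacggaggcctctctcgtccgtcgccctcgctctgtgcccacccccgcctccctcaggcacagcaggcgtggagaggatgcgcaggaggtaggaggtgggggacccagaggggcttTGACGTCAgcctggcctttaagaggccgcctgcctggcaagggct
Slc18a2: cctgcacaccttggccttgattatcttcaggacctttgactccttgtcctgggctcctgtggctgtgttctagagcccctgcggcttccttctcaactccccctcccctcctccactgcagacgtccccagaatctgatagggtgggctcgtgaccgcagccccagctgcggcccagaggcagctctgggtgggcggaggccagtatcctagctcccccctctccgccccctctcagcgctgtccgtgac
Slc6a3: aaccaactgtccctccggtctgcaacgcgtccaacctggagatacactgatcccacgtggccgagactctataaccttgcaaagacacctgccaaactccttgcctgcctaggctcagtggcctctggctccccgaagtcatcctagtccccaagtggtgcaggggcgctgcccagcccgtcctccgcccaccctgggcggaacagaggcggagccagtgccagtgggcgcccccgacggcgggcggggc
Ddc: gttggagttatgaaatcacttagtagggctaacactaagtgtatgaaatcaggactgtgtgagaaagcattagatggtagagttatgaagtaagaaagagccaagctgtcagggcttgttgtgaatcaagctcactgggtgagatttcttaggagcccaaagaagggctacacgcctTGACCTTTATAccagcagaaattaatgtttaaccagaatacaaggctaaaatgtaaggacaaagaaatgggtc

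These 250 bases were searched on both strands for the cyclic AMP response element TGACGTCA, the binding element of the Nr4a nuclear receptors, AAAGGTCA, and the TATA box TATAAA. The Th window held 1 cyclic AMP response element, beginning 45 bases before the start, which 1.55% of all 32851 windows of that length held. The first Ddc window held 1 Nr4a element, 73 bases before the start and on the opposite strand, as TGACCTTT. It overlapped a TATA box match 68 bases before the start that was also on the opposite strand, as TTTATA. Of all windows, 1.34% held the Nr4a element and 12.4% the TATA box. None of these letters were found in the Slc18a2 and Slc6a3 windows, so the 3 genes that varied together had no searched motif in common. Of the other windows found, that of Tph2 held a TATA box 30 bases before the start and those of Dbh, Slc6a4 and Maoa held no match. A match is a description of the sequence and not a measured binding site.

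On the log2 scale, where the offset compresses dim probes, those of dopamine varied most of the monoamine genes. With the blank mean subtracted and no normalization, the highest array was 2.71 times the lowest for Th, 3.25 for Slc18a2 and 8.28 for Slc6a3. It was 1.65 times for Ddc, 2.12 for Slc6a2 and 1.52 for Tph2. Th, Slc18a2 and Slc6a3 had their 4 highest values on the same 4 arrays, 1 of them a control array. Th did not split into separate groups, with 6.84 as the lowest of these 4 and 6.79 as the highest of the others. Dbh and Tph2 hardly moved on the log2 scale. No monoamine gene passed the test in any comparison: 0 of 9 had an adjusted p under 0.05 after 1 day, where 0% of all 21583 probes did. After 10 days, between the times and for either time against control the members' count was also 0, beside 0% of all probes in each. Levels are log2 intensities of 1 probe after background correction with an offset and quantile normalization, and they are compared between arrays and not between genes.

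**Figure D1:**
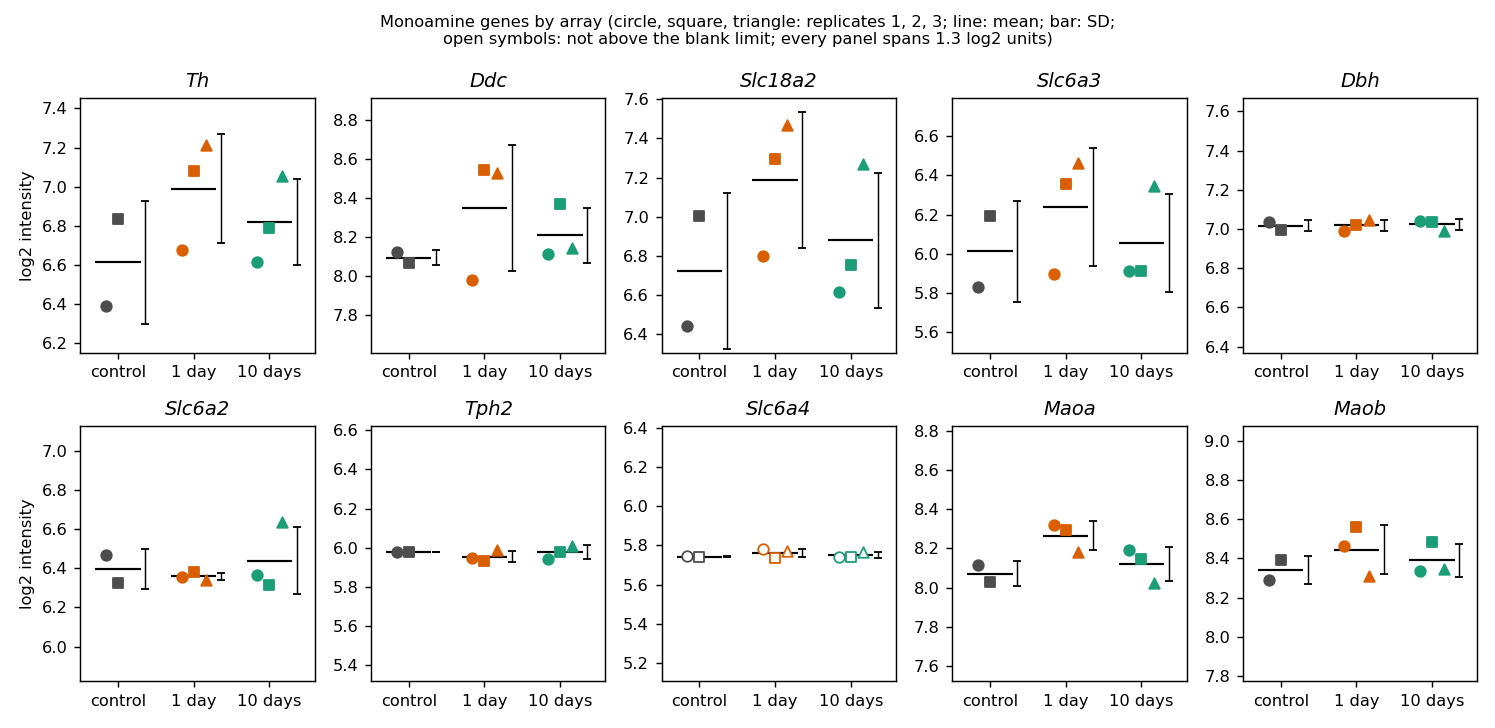
Log2 intensity of the 10 monoamine genes on each array, by group, with the group mean as a line and the SD as a bar; every panel spans the same number of log2 units. Th, Slc18a2 and Slc6a3 spread within every group, Dbh and Tph2 lay almost level, and Slc6a4 (open symbols) did not exceed the blank limit on any array.

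Th encodes tyrosine hydroxylase, the rate-limiting enzyme of dopamine and noradrenaline synthesis. The log2 intensity of Th was 6.39 and 6.84 in the controls, 6.68, 7.08 and 7.21 after 1 day and 6.62, 6.79 and 7.06 after 10 days. The groups overlapped, and each group held arrays on either side of the overall mean of 6.83. Over the 8 arrays the level spanned 0.82 on the log2 scale, a wider range than that of 99.3% of the tested probes. Its spot ran from 2.19 to 4.07 times the blank mean. After 1 day the log2 change was 0.38 (SE 0.20, 95% interval -0.083 to 0.83), and after 10 days it was 0.21 (SE 0.20). Neither passed the test (limma, adjusted p = 1.00 for both). The 1-day value was 0.15 without control replicate 1 and 0.60 without control replicate 2. In these tissue samples, fewer cells of a type and less RNA per cell cannot be told apart.

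Slc18a2 encodes the vesicular monoamine transporter, which loads dopamine, noradrenaline and serotonin into vesicles. Slc18a2 had a log2 intensity of 6.44 and 7.00 in the controls, 6.80, 7.30 and 7.47 after 1 day and 6.62, 6.75 and 7.27 after 10 days. Every group again held high and low arrays, and the groups overlapped. The range of 1.03 was wider than that of 99.7% of tested probes. Its log2 change was 0.47 after 1 day (SE 0.26, 95% interval -0.15 to 1.08) and 0.16 after 10 days (SE 0.26). Neither change passed the test (adjusted p = 1.00 for both). Without control replicate 1 the 1-day value was 0.18, and without control replicate 2 it was 0.75.

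Slc6a3 encodes the plasma membrane dopamine transporter, a defining gene of midbrain dopamine neurons. On the log2 scale it measured 5.83 and 6.19 in the controls, 5.90, 6.36 and 6.46 after 1 day and 5.91, 5.91 and 6.34 after 10 days. The values fell into 4 low arrays between 5.83 and 5.91 and 4 high arrays between 6.19 and 6.46, with members of every group in both. Its spot exceeded the limit on all arrays but was only 1.14 to 2.10 times the blank mean, so the offset compresses its range. Slc6a3 had a log2 change of 0.23 after 1 day (SE 0.20, 95% interval -0.24 to 0.70) and of 0.044 after 10 days (SE 0.20), and neither passed (adjusted p = 1.00). Without control replicate 1 the 1-day value was 0.045, and without control replicate 2 it was 0.41. With the blank mean subtracted before the log, the 1-day value was 1.23 (SE 1.06), and the values of Th and Slc18a2 were 0.75 (SE 0.39) and 0.86 (SE 0.47), none of them past the threshold.

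Ddc encodes aromatic L-amino acid decarboxylase, which completes the synthesis of both dopamine and serotonin and is also made outside monoamine neurons. Ddc had a log2 intensity of 8.12 and 8.07 in the controls, 7.98, 8.54 and 8.53 after 1 day and 8.11, 8.37 and 8.15 after 10 days. The highest and the lowest array both belonged to the 1-day group. The range was 0.56, and the spot lay at 7.84 to 12.2 times the blank mean. For Ddc the log2 change was 0.25 after 1 day (SE 0.17) and 0.12 after 10 days (SE 0.17), without passing the test (adjusted p = 1.00). Leaving out 1 array moved the 1-day value between 0.16 and 0.44, the highest without 1-day replicate 1 (SE 0.087, unadjusted p = 0.00159, adjusted p = 0.679), and the 10-day value between 0.035 and 0.16. With the local background column subtracted these values were -0.18 and -0.10.

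Between the trehalose times all 4 dopamine genes were lower at 10 days. The log2 change from 1 to 10 days was -0.17 for Th (SE 0.18), -0.31 for Slc18a2 (SE 0.24), -0.18 for Slc6a3 (SE 0.18) and -0.14 for Ddc (SE 0.15). None passed, and the groups overlapped for each. With each array left out in turn the values ran from -0.33 to -0.059 for Th, -0.50 to -0.17 for Slc18a2, -0.35 to -0.071 for Slc6a3 and -0.32 to -0.043 for Ddc. With the local background column subtracted the value of Ddc turned to 0.0815, while Th, Slc18a2 and Slc6a3 stayed negative under every setting. The comparisons with control share the 2 control arrays, so the side-by-side values of 1 and 10 days are not independent.

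Within groups the 3 genes moved with each other. The 4 arrays with the highest Th were control replicate 2, 1-day replicates 2 and 3 and 10-day replicate 3. The same 4 arrays were the highest in Slc18a2 and in Slc6a3, and 3 of them were among the 4 highest in Ddc. Over the 8 arrays Th and Slc18a2 had r = 0.982 (exact permutation p = 7.44e-05) and rho = 0.976 (exact permutation p = 3.97e-04), with adjusted p = 0.00223 and 0.00714 over 36 pairs of monoamine genes. Without the 2 arrays farthest from the median of Th, r was 0.967. It was 0.988 with the group means removed, and 0.973 to 0.995 with any single array left out. With the local background column subtracted r was 0.792 and did not pass (adjusted p = 0.255), and in the authors' deposited intensities r was 0.979. Because Slc6a3 fell into separate clusters of 4 arrays, no correlation over all arrays is given for it, and the clusters are too small for their own. Th and Ddc were less alike, with r = 0.669 (exact permutation p = 0.0732, adjusted 0.527) and rho = 0.643 (exact permutation p = 0.0962). Pairs that passed were all among Th, Slc18a2 and Slc6a3, and those with Slc6a3 rest on its separate clusters. The members were chosen with earlier results of these data known, which these p-values do not account for.

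**Figure D2:**
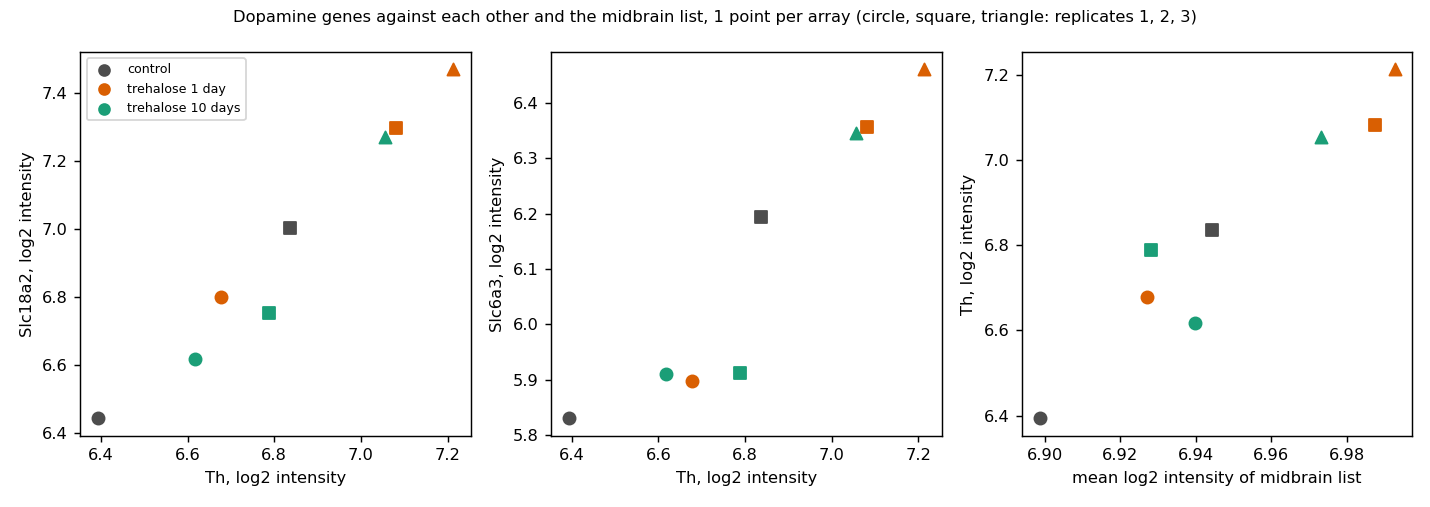
Log2 intensity of Slc18a2 against Th, of Slc6a3 against Th, and of Th against the mean of 15 midbrain dopamine neuron probes, 1 point per array coloured by group. The arrays order alike in Th and Slc18a2 in every group, Slc6a3 falls into 4 low and 4 high arrays, and the midbrain mean spans 0.094 log2 units.

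The number that opens each sample description, whose meaning the labels do not state, runs through the groups in turn. Its relation to Th had r = 0.712 (exact permutation p = 0.0503) and rho = 0.714 (exact permutation p = 0.0576), and to Slc18a2 r = 0.698 (exact permutation p = 0.0607) and rho = 0.619 (exact permutation p = 0.115), with adjusted p of r = 0.117 for both over 9 genes. It was higher for Tph2, with r = 0.785 (exact permutation p = 0.0236) and rho = 0.738 (exact permutation p = 0.0458), and negative for Maoa, with r = -0.68 (exact permutation p = 0.0651). Slc6a3 also had an unadjusted p under 0.05 (exact permutation p = 0.0435), but its separate clusters allow no pooled r. None of the 9 passed after adjustment, and with that number removed r between Th and Slc18a2 was 0.964.

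With the description number as a covariate in the fit, the spread left for the dopamine genes was smaller. The 1-day log2 change was then 0.42 for Th (SE 0.072, unadjusted p = 6.86e-04), 0.53 for Slc18a2 (SE 0.095, unadjusted p = 9.00e-04) and 0.27 for Slc6a3 (SE 0.093, unadjusted p = 0.0227). From 1 to 10 days it was -0.26 for Th (SE 0.066, unadjusted p = 0.00572), -0.43 for Slc18a2 (SE 0.086, unadjusted p = 0.00168) and -0.27 for Slc6a3 (SE 0.084, unadjusted p = 0.0151). The 10-day values against control were 0.16 for Th (SE 0.072) and 0.098 for Slc18a2 (SE 0.095). With Maoa, 4 of 9 members had an unadjusted p under 0.05 after 1 day and 4 of 9 from 1 to 10 days, beside 4.74% and 4.35% of all probes. None passed after adjustment over all probes (adjusted p of 0.996 or more for each member).

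Of the noradrenaline genes Dbh was nearly flat. Dbh, dopamine beta-hydroxylase, turns dopamine into noradrenaline and marks noradrenaline neurons. Levels of Dbh on the log2 scale were 7.04 and 7.00 in the controls, 6.99, 7.02 and 7.05 after 1 day and 7.04, 7.04 and 6.99 after 10 days. Its range of 0.059 was wider than that of only 2.34% of tested probes, although its spot stood at 3.30 to 3.96 times the blank mean. The log2 changes were 0.0023 after 1 day (SE 0.037, 95% interval -0.084 to 0.089) and 0.0066 after 10 days (SE 0.037).

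Slc6a2 is the noradrenaline transporter, which takes noradrenaline and also dopamine back into the cell. Slc6a2 lay at a log2 intensity of 6.47 and 6.33 in the controls, 6.36, 6.38 and 6.34 after 1 day and 6.37, 6.31 and 6.64 after 10 days. The spread came mainly from 10-day replicate 3, the highest array. For Slc6a2 the log2 change was -0.037 after 1 day (SE 0.093) and 0.042 after 10 days (SE 0.093), neither past the test. Without 10-day replicate 3 the 10-day value was -0.056.

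Of the serotonin genes, Tph2, the tryptophan hydroxylase of brain serotonin neurons, lay close to background. Its log2 intensity was 5.98 and 5.98 in the controls, 5.95, 5.93 and 5.99 after 1 day and 5.94, 5.98 and 6.01 after 10 days, at 1.25 to 1.43 times the blank mean. The log2 change was -0.022 after 1 day (SE 0.037) and 0.00026 after 10 days (SE 0.037), and the offset compresses any change of so dim a probe. The Slc6a4 spot measured 0.973 to 1.05 times the blank mean, not well above background on any array, so no fold is given. The authors' deposited table lists no value for it on any of the 8 arrays.

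Maoa and Maob, the breakdown enzymes, spanned 0.30 and 0.27 over the arrays. On this log2 scale, where the offset compresses dim probes, that was less than the dopamine genes and more than Dbh and Tph2. With the blank mean subtracted and no normalization, the highest array was 1.43 times the lowest for Maoa and 1.39 times for Maob. That ratio was 1.52 for Tph2 and 1.18 for Dbh. Maoa prefers serotonin and noradrenaline as substrates, and its log2 intensity was 8.12 and 8.03 in the controls, 8.32, 8.29 and 8.18 after 1 day and 8.19, 8.15 and 8.03 after 10 days. All 3 arrays of the 1-day group lay above both controls, the only member whose groups did not overlap in that comparison, 1 of 9 beside 18.2% of all tested probes. The log2 change of 0.19 (SE 0.065, 95% interval 0.044 to 0.34) had an unadjusted p of 0.0180, the only member under 0.05 beside 3.65% of all probes, and an adjusted p of 1.00. Without control replicate 2 the value was 0.15 (unadjusted p = 0.119). After 10 days it was 0.051 (SE 0.065), and from 1 to 10 days it was -0.14 (SE 0.058, unadjusted p = 0.0396). With the local background column subtracted the value from 1 to 10 days was 0.13. In that last comparison 1 of 9 members was under 0.05 before adjustment, beside 3.5% of all probes, and 0 of 9 had groups that did not overlap, beside 8.4%. After 10 days 0 of 9 members were under 0.05 before adjustment and 0 of 9 had groups that did not overlap, beside 2% and 13.4% of all probes. For either time against control both counts were again 0 of 9, beside 2.63% and 4.73%.

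Maob, which prefers phenylethylamine and is abundant in astrocytes and serotonin neurons, had a log2 intensity of 8.29 and 8.39 in the controls, 8.46, 8.56 and 8.31 after 1 day and 8.34, 8.48 and 8.35 after 10 days. Its groups overlapped, and the log2 change was 0.10 after 1 day (SE 0.080) and 0.047 after 10 days (SE 0.080), neither past the test.

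**Figure D3:**
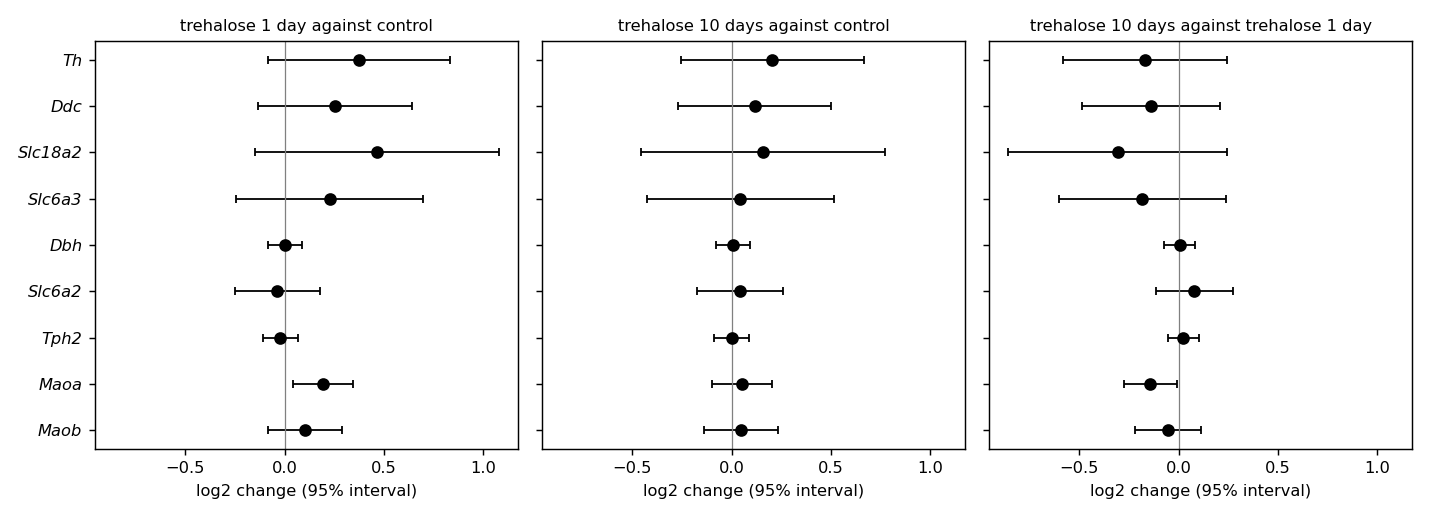
Log2 change of the 9 tested monoamine genes in 3 comparisons, as points with 95% intervals from the fit across all probes; the vertical line is no change. The intervals of Th, Ddc, Slc18a2 and Slc6a3 are wide and hold 0 in each comparison, those of Dbh and Tph2 are narrow around 0, and Maoa lies above 0 after 1 day and below 0 from 1 to 10 days before adjustment.

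Counted over the 9 tested genes, 7 were higher and 2 lower after 1 day, with a median log2 change of 0.19, while 49.7% of all probes were higher. After 10 days 9 of 9 were higher with a median of 0.047, beside 48.6% of all probes. The smallest of these changes were Tph2 at 0.00026 and Dbh at 0.0066. With the local background column subtracted Ddc, Slc6a3, Dbh, Slc6a2 and Tph2 were lower after 10 days. For both times together against control 8 were higher and 1 lower, with a median of 0.12, beside 48.6% of all probes. From 1 to 10 days 3 were higher and 6 lower, with a median of -0.14, while 48.6% of all probes were higher. The dopamine genes vary together, so these counts hold fewer independent measurements than genes.

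Markers of the regions and neurons that could carry these mRNAs were set beside the genes. Of the 15 midbrain dopamine neuron markers listed, 14 were tested by 15 probes, and the transcription factor Lmx1a was not above background on any array. The mean log2 intensity of the 15 probes was 6.90 and 6.94 in the controls, 6.93 to 6.99 after 1 day and 6.93 to 6.97 after 10 days. Their summed intensity above the blank mean was 1774 to 1778 in the controls, 1996 to 2179 after 1 day and 1714 to 2101 after 10 days. That sum was not normalized between arrays. In the normalized list mean the groups overlapped, with 6.93 on 1-day replicate 1 and 6.94 on control replicate 2. The list mean spanned 0.094 over the arrays, while its single probes, which moved in different directions, spanned 0.11 to 0.70. After 1 day 12 of the 15 probes were higher and 3 lower, with a median log2 change of 0.044 and 0 past the test. The lowest unadjusted p were those of Sncg at 0.15 (SE 0.053, unadjusted p = 0.0237) and Aldh1a1 at 0.29 (SE 0.16, unadjusted p = 0.101).

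The mean of the midbrain list varied with Th, Slc18a2 and Slc6a3, and less with Ddc. Th and the list mean had r = 0.957 (exact permutation p = 6.70e-04) and rho = 0.929 (exact permutation p = 0.00223), with adjusted p = 0.0208 for r and 0.0603 for rho over 81 relations between genes and region lists. Slc18a2 and the list mean had r = 0.953 (exact permutation p = 7.69e-04, adjusted 0.0208) and rho = 0.905 (exact permutation p = 0.00456, adjusted 0.0924). Without the 2 arrays farthest from the median of the list, r was 0.919 for Th and 0.905 for Slc18a2. With the group means removed r was 0.935 and 0.945. Ddc and the list mean had r = 0.660 (exact permutation p = 0.0770, adjusted 0.423) and rho = 0.619 (exact permutation p = 0.115). Without the same 2 arrays r of Ddc was -0.015. In all, 3 of the 81 relations passed on r, those of Th, Slc18a2 and Slc6a3 with this list, and 9 had an unadjusted p under 0.05. The relation of Slc6a3 rests on its separate clusters, so its pooled r is not given. Members and lists were chosen with earlier results of these data known, which these p-values do not account for.

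The relation with the midbrain list changed with the array left out, the probes in the list and the background method. With each array left out in turn r of Th stayed between 0.929 and 0.978, but the adjusted p ran from 0.0161 to 0.230 and passed only without 10-day replicate 1. For Slc18a2 r ran from 0.930 to 0.990, with the same range of adjusted p. With the local background column subtracted r was 0.332 for Th and 0.713 for Slc18a2, and in the authors' deposited intensities 0.509 and 0.521, none of them past the threshold. Aldh1a1, an aldehyde dehydrogenase of ventral dopamine neurons that astrocytes also make, had 2 probes in the list. Without them r was 0.823 for Th and 0.787 for Slc18a2, and with them alone 0.896 and 0.926.

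The single midbrain markers did not all move with Th. As a description over the 8 arrays, r with Th was above 0 for 10 of the 15 probes and below 0 for 5. It was 0.896 for the nicotinic receptor subunit Chrna6, 0.779 for the receptor tyrosine kinase Ret, 0.713 for Sncg, gamma-synuclein, and 0.787 and 0.479 for the Aldh1a1 probes. For Ntsr1, Otx2, Nr4a2, Foxa1 and Foxa2 it was 0.613, 0.575, 0.387, 0.375 and 0.328. It was -0.069 for Pitx3, -0.087 for Chrnb3, -0.25 for En1, -0.47 for En2 and -0.55 for the transporter-like gene Slc10a4, of which Pitx3, En1 and En2 are transcription factors of midbrain neurons. Chrna6 exceeded the limit on 6 arrays and Ret on 7, so both lay at the edge of detection. Single markers other than Sncg, Aldh1a1 and Pitx3 were named after their values were seen. How much midbrain tissue each sample held was not measured, and its part in the dopamine gene levels was not tested.

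The noradrenaline and serotonin genes were not tied to their own lists. Dbh and the mean of 3 locus coeruleus probes had r = -0.12 (exact permutation p = 0.774) and rho = -0.21 (exact permutation p = 0.619). Tph2 and the mean of 6 raphe probes had r = 0.012 (exact permutation p = 0.978) and rho = -0.12 (exact permutation p = 0.793). Phox2a, a defining factor of noradrenaline neurons, was not above background on any array. Slc6a2 and 20 brainstem and spinal probes had r = 0.706 (exact permutation p = 0.0494, adjusted 0.405) and rho = 0.595 (exact permutation p = 0.132), and without the 2 farthest arrays r was 0.135. Maoa and 18 hypothalamus probes had r = 0.865 (exact permutation p = 0.00578, adjusted 0.117) and rho = 0.738 (exact permutation p = 0.0458), and r was 0.538 without the 2 farthest arrays.

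Markers of the striatum, the main target of midbrain dopamine axons, varied in another way. Their mean over 17 probes lay 0.27 above its overall mean on control replicate 1, 0.26 above it on 1-day replicate 1 and 0.63 below it on 1-day replicate 2. Th had r = -0.64 (exact permutation p = 0.0717, adjusted 0.423) and rho = -0.88 (exact permutation p = 0.00724, adjusted 0.117) with this list. The lowest striatum value fell on an array high in Th, and the highest on the array lowest in Th. Thalamus markers were 0.17 below their mean on control replicate 1 and 0.21 above it on 1-day replicate 2. The part of region content in these differences was not tested.

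**Figure D4:**
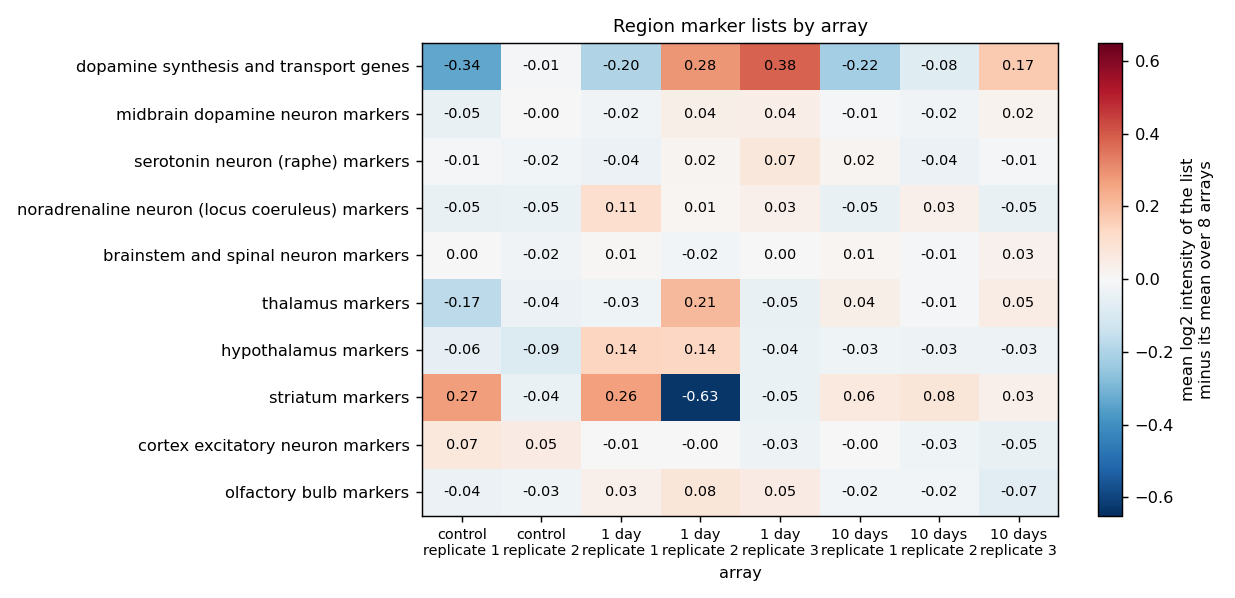
Mean log2 intensity of the 4 dopamine genes and of 9 region marker lists on each array, as the difference from the list's mean over the 8 arrays. The dopamine genes span -0.34 to 0.38, the midbrain list -0.05 to 0.04, and the striatum list drops to -0.63 on 1-day replicate 2.

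Other genes of the pathway were described from lists chosen by function, with earlier results of these data known. Of 13 other enzymes and cofactor enzymes tested by 14 probes, 0 passed in any comparison; after 1 day 9 probes were higher and 5 lower, with a median log2 change of 0.020. Pcbd1, which regenerates the tetrahydrobiopterin cofactor that Th and Tph2 need, had the lowest p of this list. Its log2 intensity was 7.58 and 7.58 in the controls, 7.85, 7.90 and 7.83 after 1 day and 7.75, 7.73 and 7.68 after 10 days, with no overlap between any groups. Of all tested probes, 18.2% had groups that did not overlap after 1 day, 13.4% after 10 days and 8.4% between the times. The log2 change of Pcbd1 was 0.28 after 1 day (SE 0.038, unadjusted p = 1.04e-04) and 0.14 after 10 days (unadjusted p = 0.00708). From 1 to 10 days it was -0.14 (unadjusted p = 0.00383). None passed over all probes (adjusted p = 1.00), and over the other settings the 1-day value stayed between 0.26 and 0.45. Pts, an enzyme of tetrahydrobiopterin synthesis, was next in p with a log2 change of 0.099 (SE 0.052) after 1 day.

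Of 3 other monoamine transporters, 1 was higher and 2 lower after 1 day, and 0 passed. Slc18a1, the vesicular transporter of endocrine cells, had a log2 change of 0.016 (SE 0.041) and Slc29a4, a low-affinity monoamine transporter, one of -0.018 (SE 0.069). Of 12 tested transcription factors of monoamine neurons 8 were higher and 4 lower, with a median of 0.018. The lowest p among them was that of Gata3, a factor of serotonin neurons, at 0.13 (SE 0.085), followed by Pitx3 at -0.11 (SE 0.073). Neither passed the test (adjusted p = 1.00).

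The receptors that read the transmitters showed 0 calls as well. Of 5 dopamine receptors 3 were higher and 2 lower after 1 day. Drd1, the main receptor of the direct striatal pathway, had a log2 intensity of 7.84 and 7.56 in the controls, 7.83, 6.81 and 7.46 after 1 day and 7.79, 7.74 and 7.61 after 10 days. Drd2, the receptor of the indirect pathway and of dopamine neurons themselves, had 7.50 and 7.22, then 7.43, 6.53 and 7.43, then 7.07, 7.31 and 7.33. Both were lowest on 1-day replicate 2, the array lowest in the striatum list. Their 1-day changes were -0.34 (SE 0.25) and -0.23 (SE 0.26).

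Drd5, a dopamine receptor of cortical and hippocampal neurons, had the lowest p of the receptors. Its log2 intensity was 6.32 and 6.49 in the controls, 6.67, 6.75 and 6.74 after 1 day and 6.62, 6.41 and 6.50 after 10 days. The 1-day arrays lay above all others, while 18.2% of all tested probes had no overlap with control after 1 day and 8.4% none between the times. The log2 change was 0.31 after 1 day (SE 0.072, unadjusted p = 0.00259, adjusted p = 1.00), and -0.21 from 1 to 10 days (unadjusted p = 0.0120). With the local background column subtracted the 1-day value was 0.11.

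Both adrenergic receptors tested, of 9 listed, were lower after 1 day, and the larger change was that of Adra2c at -0.17 (SE 0.12). Of 15 serotonin receptor probes 8 were higher and 7 lower, with a median of 0.0093, and the lowest p were those of Htr4 at -0.079 (SE 0.044) and Htr7 at 0.15 (SE 0.095). None of these passed the test (adjusted p = 1.00).

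Genes with the profile most like each variable member were sought among 798 other symbols with a range of at least 0.5 over the arrays, as a description of these 8 arrays with no test. For Th they were Slc18a2 (r = 0.982), Slc6a3 and Cbln4, a secreted synapse organizer (r = 0.936). For Slc18a2 they were Th, Slc6a3 and Kctd4 (r = 0.914), and for Slc6a3 they were Slc18a2, Th and Kctd4. For Ddc they were Psmd13, a proteasome subunit (r = 0.933), Synj2bp (r = 0.910) and Rasl11a (r = 0.876), none of them a monoamine gene.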

How the data were processed

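RNA of 8 mouse brains was measured on one-colour arrays, labelled with Cy5, per the labels' protocols. In the deposited scanner files each spot has a median pixel intensity, a local background intensity and flags, per the file headers. The authors also deposited a table of processed probe intensities, not on a log scale, used as an alternative. No slide or scan date is given in the sources used here.

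Spot medians were background corrected by normexp (offset 50, fitted on all spots) in limma 3.58.1 under R 4.3.3, failed spots were set to missing, arrays were quantile normalized and spots of a probe averaged. The offset compresses changes of dim probes. All 8 arrays entered 1 fit of 3 group means with 5 residual degrees of freedom, moderated by eBayes, with Benjamini-Hochberg adjustment over 21583 probes and a threshold of 0.05. Log2 changes, SE, 95% intervals and unadjusted p come from that fit.

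Correlations over arrays used exact permutation tests, two-sided, over all pairings, adjusted within each family. The fit and these tests were tested on simulated data. p-values of the fit set a change against the spread between the arrays of these mice. Those of the correlations are the share of all pairings with a correlation at least as large in size. Genes were named by a rule: every member, the 2 lowest p of each other list together with Drd1 and Drd2, and the 3 most alike genes; the single midbrain markers fall outside it. Members and lists were chosen with earlier results of these data known. Alternatives tried were other background corrections, normalizations, filters, variance models, a block, a covariate and leaving out each array. Figures used matplotlib 3.10.9. Promoters came from RefSeq.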

Additional observations from a re-analysis of the deposited data

How the results depend on the processing

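Under 20 other settings, 12 that changed the method and 8 that left out 1 array, no monoamine gene passed the test in any comparison. The count of probes called over the whole array was 0 in each comparison. It became 1 with the blank mean subtracted (10 days against control, 10 days against 1 day and either time against control) and 1 with trend and robust variances (10 days against control and 10 days against 1 day). Leaving out 1 array gave 0 to 2 calls in the comparisons of 1 day, 10 days and either time with control, with 2 in each without control replicate 1. The replicate block also gave 0 calls in every comparison. Of 7 same-numbered pairs of arrays 6 had correlations of deviations from 0.12 to 0.26 and 1 had -0.025, so by the rule that every pair exceed 0.1 the numbers were not taken to pair the mice, although 7 of 8 arrays correlated best with their own number in another group, a hint from the data and not the design. With the block the 1-day change was 0.26 for Th (SE 0.068, unadjusted p = 0.00866), 0.30 for Slc18a2 (SE 0.10, unadjusted p = 0.0281), 0.099 for Slc6a3 and 0.24 for Maoa (unadjusted p = 7.87e-04), and from 1 to 10 days -0.17 for Th (SE 0.058, unadjusted p = 0.0265), -0.31 for Slc18a2 (unadjusted p = 0.0130) and -0.14 for Maoa (unadjusted p = 0.00464). Before adjustment 4 and 3 of 9 members were then under 0.05 in these comparisons, beside 4.31% and 5.27% of all probes, and the lowest adjusted p of a member was 0.916. Of the 81 relations with region lists 3 passed; 1 did with the local background column and 1 in the authors' table, and leaving out 1 array gave 0 to 3.

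Th, Slc18a2, Slc6a3 and Maoa kept their direction after 1 day under every setting, as did Pcbd1 in 3 comparisons. Changes near 0 turned sign, and so did some farther from 0, such as Ddc after 1 day and Maoa from 1 to 10 days. The cause was not tested. With the local background column the log2 change was -0.18 (1 day), -0.10 (10 days), -0.14 (either time) and 0.081 (10 days against 1 day) for Ddc, and at 10 days -0.0063 for Slc6a3, -0.0098 for Dbh, -0.035 for Slc6a2, -0.057 for Tph2 and -0.061 for Drd5. From 1 to 10 days it was then -0.13 for Dbh, -0.013 for Slc6a2, -0.019 for Tph2, 0.13 for Maoa and 0.16 for Maob, and for Slc6a2 at either time -0.029. With the replicate block the 10-day values were -0.010 for Slc18a2, -0.084 for Slc6a3, -0.0029 for Slc6a2 and -0.016 for Tph2, and for Slc6a2 at either time -0.042. With array weights they were -0.00223 for Slc6a3 and -0.000610 for Tph2 at 10 days, -0.000616 for Dbh at 1 day and -0.016 for Slc6a2 at either time. Cyclic loess gave -0.00231 for Dbh at 1 day and -0.000337 for Tph2 at 10 days. The authors' table gave Dbh -0.052 at 1 day and -0.0028 at either time, Maob 0.016 from 1 to 10 days and Slc6a2 -0.0031 at either time. Tph2 at 10 days was -0.000197 with an offset of 16, -0.011 with the blank mean subtracted and -0.00385 with the description number as a covariate, and Slc6a2 at either time was -0.00112 with the blank mean subtracted.

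Leaving out 1 array, the 10-day values ranged from -0.016 to 0.43 for Th, -0.12 to 0.44 for Slc18a2, -0.14 to 0.23 for Slc6a3, -0.014 to 0.027 for Dbh, -0.056 to 0.11 for Slc6a2, -0.017 to 0.019 for Tph2 and -0.0040 to 0.098 for Maob. The 1-day values ranged from -0.018 to 0.023 for Dbh and -0.11 to 0.034 for Slc6a2. From 1 to 10 days the ranges were -0.010 to 0.020 for Dbh, -0.019 to 0.14 for Slc6a2 and -0.12 to 0.0012 for Maob. At either time they were -0.046 to 0.32 for Slc6a3, -0.016 to 0.025 for Dbh and -0.068 to 0.073 for Slc6a2. Slc6a3, Tph2 and Slc6a4 lay closest to the blank spots, which limits what their probes can show. The correlation settings with parts of the midbrain list, group means removed or the description number removed, and the repeats for Pcbd1, Drd5 and pairs of dopamine genes, were chosen after seeing the data.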
